A study of Rattus norvegicus with 24 samples.

Results

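Sgk1, Tsc22d3, Klf9, Cebpd, and Fkbp5 are genes that glucocorticoid hormones induce in many tissues, and their RNA was followed here in the hearts of 24 rats. The members were all probe sets whose annotation named 1 of these genes and no other: 9 of the 15866 probe sets tested, for 5 of 10411 genes. Sgk1, Tsc22d3, and Fkbp5 had 1 probe set each, and Klf9 and Cebpd had 3 each, of which the brightest stood for the gene. Values are Microarray Suite 5.0 (MAS5) signals of Affymetrix rat expression arrays, 1 array per rat, on a linear scale in arbitrary units. Probe sets differ in how strongly they bind their target, so the signals of different genes are not compared as levels. Fold changes come from signals normalized between arrays and averaged on the log2 scale, so a small difference can have the opposite sign there from that of the mean signals.

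All rats were male WKY rats, 12 to 14 weeks old at the start, and each received a weekly intratracheal instillation of 1 mL/kg under halothane. The left ventricle plus septum was taken 48 hr after the last instillation. Each of the 6 groups had 4 rats. Saline was the control, and MSH was ash of Mount St. Helens, a particle without water-soluble zinc. PM-HD was an oil combustion particle suspension with 14.5 μg of soluble zinc and 3.0 μg of nickel per mg, and PM-LD was the same particle at the lower dose, given in the labels as 7.25 and 1.5 μg/mg. PM-L was the saline-soluble part of PM-HD freed of solids. Zinc sulfate was the salt in saline at 14.5 μg/mL of zinc by the group label, whereas a protocol in the labels gives another concentration. By the methods of the study, its zinc dose equaled the soluble zinc of PM-HD and of PM-L. The saline, MSH, PM-HD, and zinc sulfate rats had 8 weekly instillations. The sources used here do not give that number for the PM-L and PM-LD rats.

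Glucocorticoids enter the cell and bind the glucocorticoid receptor, encoded by Nr3c1, which waits in a complex with HSP90 and its cochaperones. The hormone-bound receptor moves to the nucleus and binds palindromic response elements, often far from the start of the gene. Tsc22d3 (also called Gilz) encodes a leucine zipper protein that restrains NF-κB and AP-1, and Klf9 and Cebpd encode transcription factors that carry the response further. Sgk1 encodes a kinase that raises the activity of sodium channels, potassium channels, and other transporters. Fkbp5 encodes an HSP90 cochaperone that lowers the affinity of the receptor for its hormone, so that it acts as an inhibitor in a feedback loop. Cardiac muscle carries both the glucocorticoid and the mineralocorticoid receptor. Hormone levels were not part of the deposited data.

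The windows upstream of the start sites are shown for the members that moved together and, beside them, for Fkbp5, which did not move with them. They come from RefSeq on GRCr8, are written 5′ to 3′ on the strand of the gene, and hold the 250 bases before a start, with TATA boxes (TATAAA) in capitals. RefSeq lists 3 starts for Sgk1, 3 for Tsc22d3, and 1 each for Klf9 and Fkbp5, and the 2 Sgk1 windows and the Tsc22d3 window with a TATA box were chosen. The Cebpd promoter is not shown.
Sgk1, chr1:24804832-24805081, minus strand: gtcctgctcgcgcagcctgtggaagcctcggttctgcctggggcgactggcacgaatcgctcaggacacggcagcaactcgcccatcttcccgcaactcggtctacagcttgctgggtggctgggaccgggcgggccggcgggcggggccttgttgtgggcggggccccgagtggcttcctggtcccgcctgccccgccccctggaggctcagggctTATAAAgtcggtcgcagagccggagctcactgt
Sgk1, chr1:24807232-24807481, minus strand: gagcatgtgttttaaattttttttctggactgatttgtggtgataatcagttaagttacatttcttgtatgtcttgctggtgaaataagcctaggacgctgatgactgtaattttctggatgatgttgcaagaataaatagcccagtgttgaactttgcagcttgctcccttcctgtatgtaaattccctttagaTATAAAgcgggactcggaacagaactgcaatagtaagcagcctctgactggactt
Tsc22d3, chrX:109010035-109010284, minus strand: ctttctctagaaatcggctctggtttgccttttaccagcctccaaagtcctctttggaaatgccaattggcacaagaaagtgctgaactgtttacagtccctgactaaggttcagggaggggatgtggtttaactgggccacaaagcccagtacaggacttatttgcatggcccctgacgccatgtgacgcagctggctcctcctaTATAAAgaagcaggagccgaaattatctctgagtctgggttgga
Klf9, chr1:230126396-230126645, plus strand: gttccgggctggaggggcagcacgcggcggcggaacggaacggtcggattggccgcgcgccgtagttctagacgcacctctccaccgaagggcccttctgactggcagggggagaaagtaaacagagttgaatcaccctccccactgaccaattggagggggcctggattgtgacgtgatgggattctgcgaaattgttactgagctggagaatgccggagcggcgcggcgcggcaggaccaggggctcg
Fkbp5, chr20:6543556-6543805, minus strand: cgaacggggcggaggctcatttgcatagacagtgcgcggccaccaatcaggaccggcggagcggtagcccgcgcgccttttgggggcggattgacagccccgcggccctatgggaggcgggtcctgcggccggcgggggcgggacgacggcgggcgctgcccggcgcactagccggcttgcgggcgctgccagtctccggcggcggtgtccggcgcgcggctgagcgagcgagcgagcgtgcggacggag

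The TATA box lay 33 to 28 bases before the first Sgk1 start shown, 55 to 50 before the second, and 44 to 39 before the Tsc22d3 start. Of 33469 rat windows of 300 bases (250 before and 50 after a start), 14.2% held TATAAA on either strand. Of the 8 windows of the 4 genes, 0 held the site AGAACA, or the full glucocorticoid response element, in which AGAACA is followed after 3 bases by its reverse complement. On either strand, these occurred in 20.7% and 0.0149% of all windows. Nor did the 8 windows hold the E-box CACGTG (6.42% of all windows), the C/EBP palindrome TTGCGCAA (0.170%), or the cyclic AMP response element TGACGTCA (1.83%). The windows of Klf9 and Fkbp5 thus held none of the motifs searched. The GC share was 39.2% and 69.6% in the Sgk1 windows shown and 76.0% in that of Fkbp5, against a median of 51.2% over all windows.

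All 5 genes had a mean signal above the median of all probe sets tested, 242. Cebpd was the nearest to it, with single rats down to 105. The mean signal over the 24 arrays was 901 for Sgk1, 1822 for Tsc22d3, 5018 for Klf9, 292 for Cebpd, and 459.6 for Fkbp5, and in brightness each stood at percentile 55.1 or above of all probe sets tested. The defining markers of heart muscle were bright, with a summed signal of 85958 to 172831 for 5 cardiomyocyte genes (Myh6, Tnnt2, Tnni3, Myl2, Ryr2). The sum of 3 lung genes was 177 to 542 on 23 arrays and 1547 on 1 saline array. The 4 atrial genes (Nppa, Myl7, Myl4, Sln) summed to 2667 to 43218. The 3′ over 5′ ratios of control transcripts, which can rise where RNA is degraded or copied incompletely, varied too, although the methods of the study state that every RNA sample met a criterion on its ribosomal RNA. The Gapdh ratio ran from 1.11 to 5.62, and 9 arrays lay above 3 (2 each of MSH, PM-HD, and PM-L, and 1 of each other group). The actin ratio ran from 1.54 to 3.42 and did not order the arrays alike: its highest value was that of MSH replicate 3, whose Gapdh ratio was 2.02. Median signals ran from 206 to 278 per array.

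Sgk1 had its highest group mean in saline and its lowest in zinc sulfate. The 4 saline rats had signals of 761, 1233, 1057, and 1579, and the 4 zinc sulfate rats had 515, 415, 970.3, and 448. Of the zinc sulfate rats, 3 of 4 thus lay below every saline rat, and all 4 lay below the saline median of 1145. Sgk1 fell by 0.94 on the log2 scale with zinc sulfate, with a standard error of 0.34 and a 95% confidence interval of −1.67 to −0.21 (limma adjusted p = 0.999). It was the single member that passed, 1 of 5, since passing the thresholds of the study needed an unadjusted limma p under 0.05 and, for a decrease, a fold below 0.75 (here 0.522), where 2.05% of all probe sets were called lower and 4.46% in either direction. An exact permutation test of the same normalized values gave p = 0.0571 (two-sided), and 4 rats against 4 cannot give less than 0.0286. Without saline replicate 4, which had the highest Sgk1 signal of the 24 rats, the fold change was −0.75 and did not pass.

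The means of the other exposed groups lay between these for Sgk1. The MSH rats had 875, 542, 1476, and 887, and the PM-HD rats had 1171, 789.9, 510.5, and 957. The PM-LD rats had 946.5, 821, 1496, and 353, and the PM-L rats had 854, 798, 1291, and 873. Each of these groups overlapped saline, and the spread within a group reached 4.24-fold in PM-LD. The order of the means was saline (1157 ± 342, SD, n = 4), PM-L (954 ± 227), MSH (945 ± 389), PM-LD (904 ± 470), PM-HD (857 ± 279), and zinc sulfate (587 ± 259). The log2 fold changes against saline were −0.34 with MSH, −0.46 with PM-HD, −0.44 with PM-LD, and −0.24 with PM-L, and none passed, where 3.57%, 3.67%, 4.11%, and 4.25% of all probe sets were called. Since all 5 comparisons use the same saline rats, their shared direction is not 5 separate observations. Zinc sulfate against MSH gave −0.60 (95% confidence interval −1.33 to 0.13), where 6.66% of probe sets were called. It passed without MSH replicate 2 (−0.84, 6.46% of probe sets called) and, with Tsc22d3 (−0.43), without zinc sulfate replicate 3 (−0.84, 14.5% called).

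**Figure D1:**
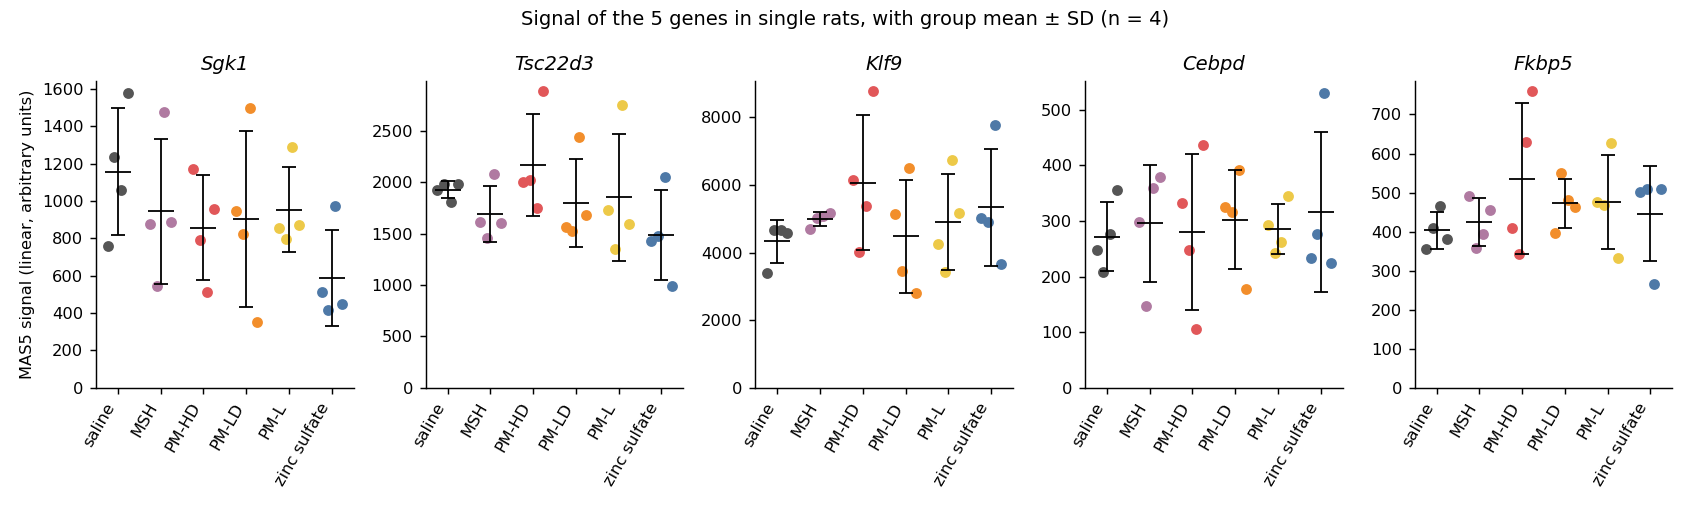
MAS5 signal (linear scale, arbitrary units) of Sgk1, Tsc22d3, Klf9, Cebpd, and Fkbp5 in single rats (points) of the 6 groups, with bars for the mean ± SD of each group of 4. For Sgk1, 3 of 4 zinc sulfate rats lie below every saline rat, and for Klf9, the 4 MSH rats lie above the 4 saline rats.

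Tsc22d3 was steady among saline rats and wider in the exposed groups. The saline rats had 1928, 1987.5, 1811, and 1985.5, a spread of 1.10-fold, and the zinc sulfate rats had 1425, 1482, 2054.5, and 991. The MSH rats had 1618, 1457, 2086, and 1605, and the PM-HD rats had 2004, 2021, 1751, and 2891.5. In MSH and in zinc sulfate, 1 rat lay above every saline rat and 3 lay below every one, and PM-LD and PM-L had the same arrangement. The PM-LD rats had 1560.5, 1524, 2439.5, and 1680.4, and the PM-L rats had 1729, 1351, 2753, and 1592. In order, the means were PM-HD (2167 ± 499, SD, n = 4), saline (1928 ± 82.8), PM-L (1856 ± 618), PM-LD (1801 ± 431), MSH (1691 ± 273), and zinc sulfate (1488 ± 437). With zinc sulfate the log2 fold change was −0.42 (95% confidence interval −0.87 to 0.04), which did not pass. Against saline it was −0.17 with MSH, 0.16 with PM-HD, −0.14 with PM-LD, and −0.07 with PM-L, and none passed.

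In MAS5 signal before normalization, Klf9 was higher in every MSH rat than in every saline rat. The MSH rats had 4709, 5016, 5069, and 5172, and the saline rats had 3397, 4679.9, 4658, and 4577. Such a full separation, in the direction of higher signal, was seen in 2.14% of all probe sets, and an exact permutation test of the signals gave the smallest p possible here, 0.0286 (two-sided). After normalization the groups overlapped, with log2 values of 12.30 to 12.44 in MSH and 11.71 to 12.31 in saline. On that scale the exact permutation test gave p = 0.0857, and the log2 fold change of 0.27 (95% confidence interval −0.35 to 0.89) did not pass. The dimmer probe sets of Klf9 had log2 fold changes with MSH of −0.37 and −0.03, so that the 3 probe sets did not point 1 way.

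The remaining groups were far wider than MSH for Klf9. The PM-HD rats had 6139, 4007, 5367, and 8778, and the zinc sulfate rats had 5010.1, 4907, 7773, and 3650.1. The PM-LD rats had 5138, 3458, 6517, and 2807, and the PM-L rats had 4257, 3431.5, 6729, and 5182. All 4 of these groups overlapped saline. The order of the means was PM-HD (6073 ± 2007, SD, n = 4), zinc sulfate (5335 ± 1739), MSH (4992 ± 199), PM-L (4899.9 ± 1413), PM-LD (4480.1 ± 1676), and saline (4328 ± 622). The log2 fold change against saline was 0.47 with PM-HD (95% confidence interval −0.15 to 1.09), 0.19 with zinc sulfate, −0.03 with PM-LD (opposite in sign to the means), and 0.20 with PM-L. Without PM-HD replicate 2 the first became 0.69 and passed, 1 of 5 members where 5.46% of probe sets were then called.

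Cebpd showed no ordered difference among the groups. The saline rats had 247, 208, 277, and 355, and the MSH rats had 298, 147, 359, and 379.7. The PM-HD rats had 332.5, 248, 105, and 436, and the PM-LD rats had 325, 316.5, 391, and 178. These groups overlapped throughout, as did the other two. The PM-L rats had 293, 242, 262.5, and 345, and the zinc sulfate rats had 234, 276, 531, and 224. The group means ran only from 272 ± 62.1 (SD, n = 4) in saline to 316 ± 145 in zinc sulfate, and the log2 fold changes against saline from −0.12 with PM-HD, whose mean signal of 280.4 was above that of saline, to 0.22 with zinc sulfate (95% confidence interval −0.58 to 1.02). Both other Cebpd probe sets were dim, at mean signals of 169 and 67.9, and the dimmest, with log2 fold changes of 0.34 to 0.88 against saline, passed in none of the 5 comparisons.

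Fkbp5, the feedback inhibitor of the receptor, had its lowest mean in saline, as did Klf9 and Cebpd, whereas Sgk1 had its highest there. No exposed group passed for Fkbp5. The saline rats had 355, 410.4, 467, and 381, and the MSH rats had 491, 358, 393, and 456. The PM-HD rats had 409, 343, 629.5, and 761, and the PM-LD rats had 396, 549, 482, and 463. The widest group was PM-HD, with a 2.22-fold range. The PM-L rats had 475, 468.5, 627, and 332, and the zinc sulfate rats had 501, 509.9, 264.5, and 509. The order of the means was PM-HD (536 ± 194, SD, n = 4), PM-L (476 ± 121), PM-LD (472.5 ± 62.8), zinc sulfate (446 ± 121), MSH (425 ± 60.3), and saline (403 ± 47.9). The log2 fold changes against saline were 0.04 with MSH, 0.34 with PM-HD (95% confidence interval −0.22 to 0.90), 0.24 with PM-LD, 0.20 with PM-L, and 0.14 with zinc sulfate. In zinc sulfate, 3 rats lay close together above every saline rat, and replicate 3 lay below every one.

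**Figure D2:**
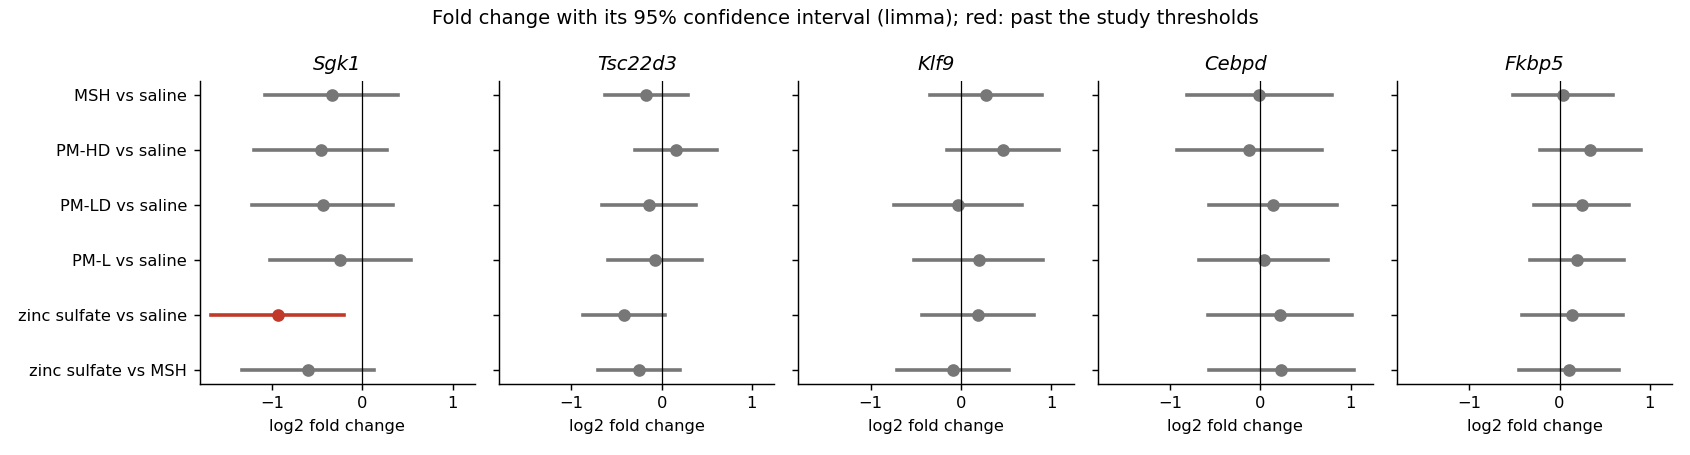
Log2 fold change (points) with its 95% confidence interval (lines) for the 5 genes in 6 comparisons, from the limma fit. The interval of Sgk1 with zinc sulfate against saline, −1.67 to −0.21, is the one that leaves out 0, and the other 29 include it.

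Over the 7 comparisons, which add the 4 groups with soluble zinc against saline and MSH together, 1 of 35 tests of a member passed, and the lowest adjusted p was 0.730. That last comparison gave log2 fold changes of −0.35 for Sgk1 (95% confidence interval −0.83 to 0.13), 0.21 for Fkbp5, 0.08 for Cebpd, 0.07 for Klf9, and −0.03 for Tsc22d3, where 3.52% of probe sets were called. In a moderated F test over the 6 groups, 0 of 5 members had an unadjusted p under 0.05, where 5.01% of probe sets did. In the order of the means, 25 pairs of neighbouring groups were compared, and in 0 of them did the means differ by more than the larger SD of the pair (lowest exact permutation p = 0.257).

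The number of members called with zinc sulfate depended on which arrays were kept. Zinc sulfate replicate 3 had a Gapdh ratio of 5.57 and the highest signal of its group for Sgk1, Tsc22d3, Klf9, and Cebpd, but the lowest for Fkbp5. The other 3 zinc sulfate arrays had ratios of 1.42 to 1.52. Without that array, Tsc22d3 also passed, at −0.60 on the log2 scale, so that 2 of 5 members were called where 8.29% of probe sets were. Without the arrays of Gapdh ratio above 3, 3 of 5 members were called where 6.96% of probe sets were. In this fit of 4 groups, that left out 1 array each of saline and zinc sulfate, and 2 each of MSH and PM-HD. The members called were Sgk1 at −0.99, Tsc22d3 at −0.56, and, in the opposite direction, Fkbp5 at 0.35 on the log2 scale. With the same arrays left out, zinc sulfate against MSH had Fkbp5 higher by 0.52, 1 of 5 where 13.2% of probe sets were called. With the Gapdh ratio as a covariate on all arrays, Sgk1 was the member that passed (−0.90), and Tsc22d3, at −0.39, was short of the fold threshold.

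Beside the low Sgk1 of zinc sulfate stood the sums of cell type markers, in signals before normalization. For 5 fibroblast genes the sum was 14746 to 16774 in zinc sulfate (median 15676) and 15675.5 to 19938 in saline (median 17024). For 3 endothelial genes it was 4584 to 14190 (median 5394) and 5979.5 to 10366 (median 7309), and for 4 adipocyte genes 7335 to 25076 (median 8536) and 6967 to 15049 (median 10000.25). For 4 smooth muscle genes it was 2119 to 3547 (median 2383) and 2446 to 3933 (median 2916). All of these medians were lower in zinc sulfate. Those of the 4 leukocyte genes, at 6112 (3762 to 6442) and 5633 (4840 to 6569), were higher. So were those of the 5 cardiomyocyte genes, at 159106 (152184 to 172831) and 142933 (85958 to 158002). The 2 red cell genes were higher too, at 15105 (10580 to 24277) and 13894 (11200.5 to 18928). After normalization, the median log2 fold change of the leukocyte genes was −0.12, opposite in direction to the medians of their sums. It was −0.19 for the fibroblast, −0.26 for the endothelial, −0.10 for the adipocyte, and −0.22 for the smooth muscle genes. For the cardiomyocyte and red cell genes it was 0.04 and 0.07. Of the genes of these lists, 0 passed with zinc sulfate against saline. Their part in the Sgk1 difference was not tested. Fewer cells of a type and less RNA per cell cannot be told apart in tissue RNA.

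Rats of 1 group differed widely. The SD within groups on the log2 scale was 0.56 for Sgk1, 0.51 for Cebpd, 0.51 for Klf9, 0.36 for Fkbp5, and 0.36 for Tsc22d3, against a median of 0.30 over the 7933 brighter probe sets. Sgk1 stood at percentile 90.8 of that distribution, and Klf9 and Cebpd at 87.0 and 87.1. Within a group, the highest rat exceeded the lowest by 1.62-fold to 4.24-fold for Sgk1 and by 1.42-fold to 4.14-fold for Cebpd.

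These differences between rats were shared by some of the genes. Over the 24 arrays, Tsc22d3 and Klf9 correlated with r = 0.74 (Spearman rho 0.67, permutation p = 4e-05, adjusted over the 10 pairs 0.0004), and Sgk1 and Tsc22d3 with r = 0.65 (rho 0.74, permutation p = 0.00049, adjusted 0.00245). Sgk1 also correlated with Cebpd at r = 0.51 (rho 0.51, adjusted permutation p = 0.0323) and with Klf9 at r = 0.50 (rho 0.57, adjusted permutation p = 0.0323), a value that fell to 0.27 when arrays were centred on their median in place of quantile normalization (permutation p = 0.208). For Tsc22d3 and Cebpd r was 0.23, and for Klf9 and Cebpd 0.30, and neither passed, that is, reached an adjusted p under 0.05 (adjusted permutation p = 0.338 and 0.305). Leaving out the 2 arrays farthest from the median of the first gene gave 0.68 for Tsc22d3 and Klf9, 0.68 for Sgk1 and Tsc22d3, 0.47 for Sgk1 and Cebpd, and 0.43 for Sgk1 and Klf9.

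Fkbp5 stood apart from the other 4 genes. Its r was 0.02 with Tsc22d3, −0.07 with Klf9, −0.26 with Sgk1, and −0.27 with Cebpd, and none of the 4 pairs passed (adjusted permutation p from 0.305 to 0.943). Among the 15 arrays of Gapdh ratio 3 or less, its r with Tsc22d3 was −0.62 (unadjusted permutation p = 0.0123).

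**Figure D3:**
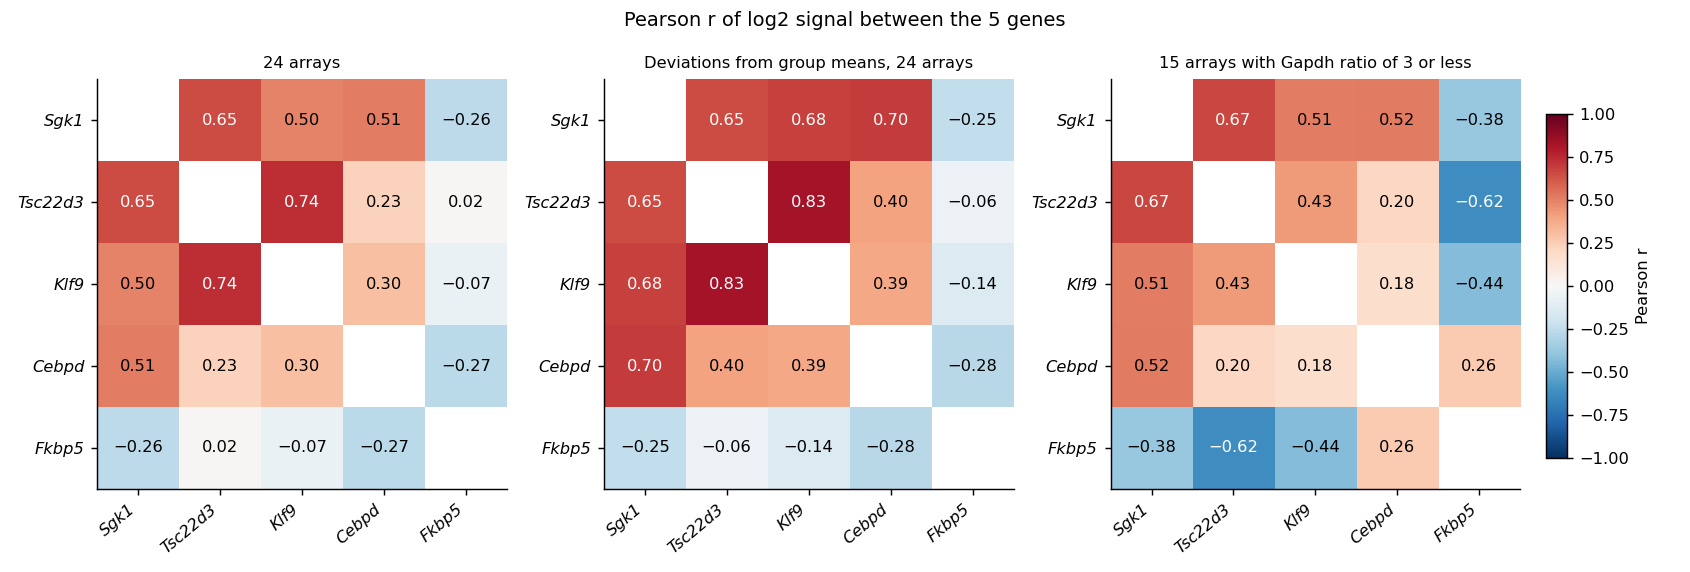
Pearson r of log2 signal for the 10 pairs of the 5 genes over 24 arrays (left), for deviations from the group means (middle), and over the 15 arrays of Gapdh ratio 3 or less (right), on a color scale from −1 to 1. The pairs without Fkbp5 are positive in all 3 panels, from 0.18 to 0.83, while 10 of the 12 values of Fkbp5 are negative.

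The correlations were also present within groups. With each group mean taken off, the 6 pairs without Fkbp5 had r of 0.39 to 0.83, against 0.23 to 0.74 before, and 4 of them passed with permutations within groups (adjusted permutation p = 0.0017 for Tsc22d3 and Klf9, and 0.00357 for each of the 3 pairs of Sgk1). The r of Sgk1 and Cebpd was 0.70 in this form. PM-LD replicate 4, for example, had the lowest signal of its group for Sgk1, Klf9, and Cebpd, and PM-LD replicate 3 had the highest for these and for Tsc22d3. The rat with the highest Sgk1 of a group also had the highest Tsc22d3 in 4 of 6 groups, the highest Klf9 in 3, the highest Cebpd in 3, and the highest Fkbp5 in 1.

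**Figure D4:**
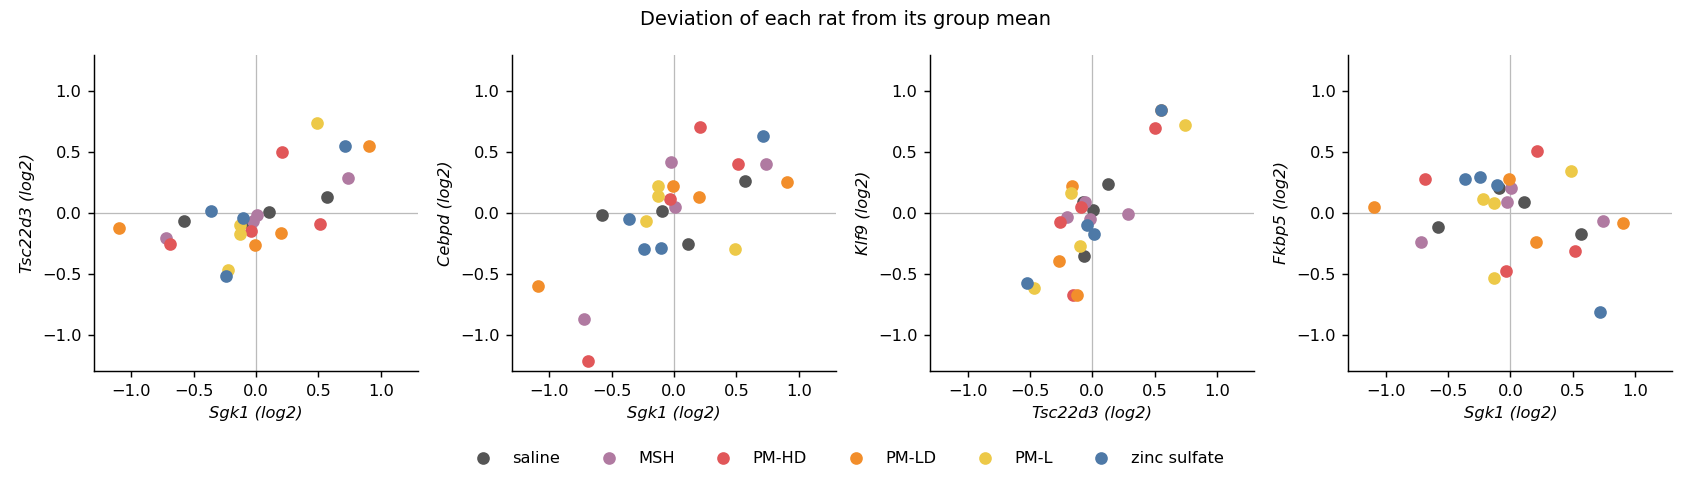
Deviation of each rat (points, colored by group) from its group mean in log2 signal, for 4 pairs of genes. Within groups, r is 0.65 for Sgk1 and Tsc22d3, 0.70 for Sgk1 and Cebpd, 0.83 for Tsc22d3 and Klf9, and −0.25 for Sgk1 and Fkbp5.

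To place these values, each was set beside the r of all other probe sets with the same gene. Of 15865 probe sets, 0.485% had an r with Sgk1 as high as that of Tsc22d3, 5.19% as high as that of Cebpd, and 5.81% as high as that of Klf9. For Tsc22d3, 1.07% had an r as high as that of Klf9, and 30.6% as high as that of Cebpd. The upper 5% of probe sets began at r = 0.51 for Sgk1, 0.64 for Tsc22d3, and 0.78 for Klf9, but only at 0.37 for Cebpd and 0.34 for Fkbp5. Many genes of this array thus followed Klf9 from rat to rat, and few followed Cebpd or Fkbp5. The shares above were taken from the side of 1 gene of each pair, and the other side differs. From the side of Klf9, its r of 0.74 with Tsc22d3 and of 0.50 with Sgk1 lay below the upper 5%. From that of Tsc22d3, its r of 0.65 with Sgk1 lay just inside the upper 5%. The r of 0.51 of Cebpd with Sgk1 was inside the upper 5% of Cebpd.

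The 3′/5′ ratios of the arrays moved with Sgk1, Tsc22d3, and Klf9, and that of actin in part with Cebpd. The log2 Gapdh ratio correlated with Klf9 at r = 0.89 (rho 0.93, permutation p = 1e-05, the smallest that 100000 permutations can give), with Tsc22d3 at r = 0.70 (rho 0.69, permutation p = 7e-05), and with Sgk1 at r = 0.51 (rho 0.60, permutation p = 0.0107). Over the 60 relations of this kind that were computed, the adjusted p was 0.00012, 0.0007, and 0.0321. For Cebpd r was 0.19 and for Fkbp5 −0.14, and neither passed. Without the 2 arrays farthest from the median ratio, r was 0.85 for Klf9, 0.64 for Tsc22d3, and 0.48 for Sgk1, and within groups it was 0.90, 0.74, and 0.58. For Klf9, 4.99% of all probe sets had an r as large in size, for Tsc22d3 18.9%, and for Sgk1 33.4%.

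With the log2 actin ratio, r was 0.69 for Klf9 (rho 0.74), 0.58 for Sgk1 (rho 0.66), and 0.56 for Tsc22d3 (rho 0.62), and all 3 passed (adjusted permutation p = 0.00132, 0.0123, and 0.0180). Within groups the r of these genes was higher, at 0.77, 0.78, and 0.79 (adjusted permutation p = 0.000429, 0.00204, and 0.0002). For Cebpd r was 0.41 (adjusted permutation p = 0.104), but its rho of 0.53 and its r of 0.52 within groups passed (adjusted permutation p = 0.0224 and 0.0355). Fkbp5 had −0.34 and did not pass. Without the 2 arrays farthest from the median ratio, r was 0.75 for Klf9, 0.57 for Sgk1, 0.55 for Tsc22d3, and 0.50 for Cebpd. Of all probe sets, 3.32% had an r with the actin ratio as large as that of Klf9, 13.8% as large as that of Sgk1, 16.3% as large as that of Tsc22d3, and 32.4% as large as that of Cebpd. The median signal of the array correlated with Klf9 at r = 0.80, Tsc22d3 at 0.69, and Sgk1 at 0.56 (adjusted permutation p = 0.00012, 0.00103, and 0.0180), and 9.47%, 18.5%, and 29.1% of probe sets had an r as large.

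Signals before normalization followed the Gapdh ratio too. In the 5 arrays of Gapdh ratio above 4, Klf9 was 4577 to 8778 and Tsc22d3 1985.5 to 2891.5. In the 15 arrays of ratio 3 or less, Klf9 was 2807 to 6139 and Tsc22d3 991 to 2086. With the Gapdh ratio held fixed, r fell to 0.35 for Tsc22d3 and Klf9 and to 0.11 for Sgk1 and Klf9, and neither had a p under 0.05 (permutation p = 0.0977 and 0.612, not adjusted here or in the next sentences). It was 0.48 for Sgk1 and Tsc22d3 and 0.49 for Sgk1 and Cebpd, which did (permutation p = 0.0193 and 0.0125). Among the 15 arrays of ratio 3 or less, these 2 pairs had 0.67 and 0.52 (permutation p = 0.0062 and 0.0435), while Tsc22d3 and Klf9 had 0.43 and Sgk1 and Klf9 had 0.51 (permutation p = 0.110 and 0.0511). With both the group means and the ratio taken out, Sgk1 and Cebpd had 0.69 and Tsc22d3 and Klf9 0.56 (permutation p = 0.0078 and 0.0067), and Sgk1 and Tsc22d3 had 0.40 (permutation p = 0.0873).

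The outcome depended on which ratio was held fixed. With the actin ratio in its place, r was 0.58 for Tsc22d3 and Klf9, 0.49 for Sgk1 and Tsc22d3, and 0.37 for Sgk1 and Cebpd (permutation p = 0.00293, 0.0151, and 0.0736, again not adjusted). Within groups with the actin ratio held fixed, Sgk1 and Tsc22d3 had 0.095 (permutation p = 0.680), while Tsc22d3 and Klf9 had 0.58 and Sgk1 and Cebpd 0.54 (permutation p = 0.0118 and 0.0170). With both ratios held fixed, Sgk1 and Tsc22d3 had 0.44, Sgk1 and Cebpd 0.41, and Tsc22d3 and Klf9 0.30 (permutation p = 0.0309, 0.0477, and 0.155). Within groups with both ratios held fixed, these were 0.048, 0.57, and 0.38 (permutation p = 0.828, 0.0162, and 0.133). With the median signal held fixed they were 0.45, 0.57, and 0.42 (permutation p = 0.0287, 0.00338, and 0.0394). None of the pairs thus had a p under 0.05 in every one of these forms.

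**Figure D5:**
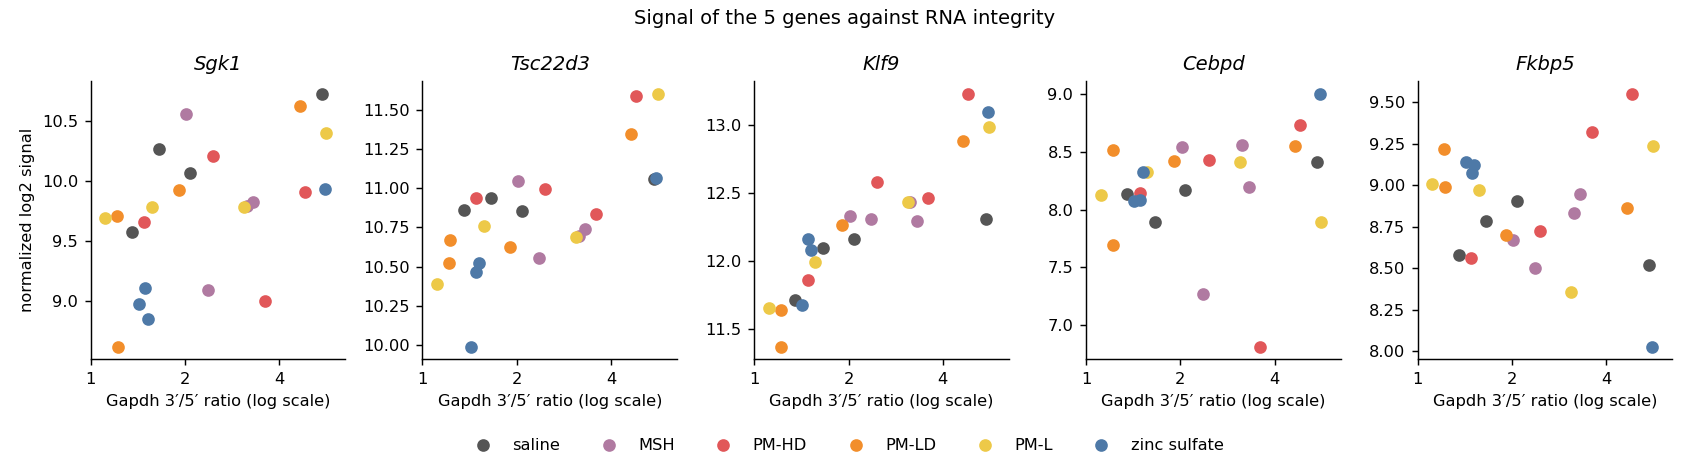
Normalized log2 signal of the 5 genes against the 3′/5′ Gapdh ratio of the array (log scale), 1 point per rat, colored by group. Klf9 (r = 0.89) and Tsc22d3 (r = 0.70) rise with the ratio, and Cebpd (r = 0.19) and Fkbp5 (r = −0.14) show no such rise.

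Marker genes of other cell types moved with the same 3 genes. Their signals were summed before normalization, so the brightness of an array enters each sum. The median signal of the array itself had r of 0.80 with Klf9, 0.69 with Tsc22d3, and 0.56 with Sgk1. The summed signal of 4 adipocyte genes (Plin1, Fabp4, Cfd, Lep) correlated with Klf9 at r = 0.93 (rho 0.93), Tsc22d3 at 0.67 (rho 0.69), and Sgk1 at 0.55 (rho 0.62). For 3 endothelial genes (Pecam1, Kdr, Vwf) r was 0.85, 0.62, and 0.48, for 2 red cell genes (Hbb, Alas2) 0.83, 0.67, and 0.47, and for 5 fibroblast genes 0.70, 0.59, and 0.51. All 12 passed (adjusted permutation p from 0.00012 to 0.0474). An r as large in size was common among all probe sets for Sgk1 (29.1%, 35.4%, 31.9%, and 23.8% in the order of these lists) and Tsc22d3 (19.7%, 23.8%, 14.5%, and 16.2%), and less so for Klf9 (0.769%, 6.65%, 1.90%, and 6.39%). The 4 smooth muscle genes passed with Klf9 (0.61) and Tsc22d3 (0.50) but not with Sgk1 (0.30). The leukocyte genes went the other way for Klf9 (−0.48, adjusted permutation p = 0.0459), and their r of 0.49 with Fkbp5 (adjusted permutation p = 0.0448) became 0.08 without the 2 arrays farthest from the median. Cebpd passed with no marker list over the 24 arrays, but within groups it passed with the leukocyte genes (−0.47, adjusted permutation p = 0.0266, against −0.44 and 0.0896 over all arrays). Neither the cardiomyocyte, the atrial, nor the lung genes passed with any of the 5. Fabp4 made up most of the adipocyte sum, with a mean signal of 11215 against group medians of the sum from 8379 to 13423. Alone it had r = 0.94 with Klf9 and 0.94 with the Gapdh ratio. The part of cell makeup, of RNA quality, or of array brightness in these values was not tested.

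The genes most alike to each member were sought among 6005 bright genes, and because they were picked for their r, no test is given. Closest to Sgk1 were Klf2 (r = 0.89 over the 24 arrays, and 0.87 within groups), Rhob (0.83), Dusp6 (0.82), Errfi1 (0.78), and Klf4 (0.77). Klf2 and Klf4 encode transcription factors that blood flow induces in endothelium, Rhob a small GTPase, Dusp6 a phosphatase of ERK kinases, and Errfi1 a feedback inhibitor of the EGF receptor. With the Gapdh ratio held fixed, these r were 0.85, 0.81, 0.75, 0.74, and 0.68.

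For Tsc22d3 the closest were Cdc42ep4 (r = 0.91), which encodes an effector of the GTPase CDC42, Tinagl1 (0.89), Lrch3 (0.86), Bcl2l1 (0.86), which encodes the survival protein BCL-XL, and Adgrg1 (0.85), an adhesion receptor gene. For Klf9 they were Epas1 (0.95), which encodes the hypoxia-inducible factor HIF-2α, Myorg (0.95), Sptbn1 (0.94), a spectrin gene, Acvrl1 (0.94), an endothelial receptor gene of the TGF-β family, and Fabp4 (0.94), a fatty acid binding protein gene of fat cells and capillaries. These genes followed the Gapdh ratio too, with r of 0.64 to 0.89 for the genes closest to Tsc22d3 and 0.86 to 0.94 for those closest to Klf9.

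Cebpd and Fkbp5 had looser neighbours. Closest to Cebpd were Per1 (r = 0.70, rho 0.36), a clock gene that glucocorticoids also induce, Cinp (0.67), Srrt (0.64), Bag5 (0.64), and Tspan12 (0.64). Closest to Fkbp5 were Gramd2b (0.67), Cox7a1 (0.66), which encodes a muscle subunit of cytochrome c oxidase, Eif4enif1 (0.63), Dnajb2 (0.62), and Shmt2 (0.62), the mitochondrial serine hydroxymethyltransferase gene. The r of these 10 genes with the Gapdh ratio ran from −0.52 to 0.46.

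Where a gene had several probe sets, they did not all move together. For Cebpd, the second probe set had r = 0.54 with the brightest and 0.62 with Sgk1, and the third had −0.28 and −0.40. For Klf9, the other 2 had r of 0.27 and 0.25 with the brightest, at mean signals of 175 and 117 against 5018. The co-variation of Klf9 therefore rests on 1 probe set.

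Other genes that glucocorticoids induce were followed from a list of 42, of which 36 were measured. Over the 180 relations with the 5 members, Klf9 had 15 that passed (8 positive and 7 negative), Tsc22d3 13 (9 positive), Sgk1 9 (7 positive), Cebpd 2, and Fkbp5 1 (adjusted permutation p under 0.05). The smallest r that passed was 0.53 in size. Of all other genes measured, 31.8% reached that size with Klf9, 23.7% with Tsc22d3, 7.92% with Sgk1, 1.26% with Cebpd, and 0.586% with Fkbp5, against 41.7%, 36.1%, 25%, 5.56%, and 2.78% of the 36. The median r over the list was 0.19 with Klf9, 0.12 with Sgk1, 0.11 with Tsc22d3, 0.07 with Cebpd, and −0.05 with Fkbp5, against 0.036, 0.012, 0.027, 0.00047, and −0.0045 over all probe sets. The 10 highest ranged from 0.72 to 0.87, and each had an adjusted permutation p of 0.00141 or less. Klf9 was in 4 of them, with Crispld2 (r = 0.87), which encodes a secreted protein that binds endotoxin, Anxa1 (0.85), the anti-inflammatory annexin A1 gene, Sult1a1 (0.84), a sulfotransferase gene, and Pim3 (0.76), a kinase gene.

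Nfkbia and Ddit4 were among the 10 highest for both Tsc22d3 and Sgk1. Tsc22d3 correlated with Sult1a1 (0.80), Ddit4 (0.80), which encodes the mTOR inhibitor REDD1, and Nfkbia (0.78), which encodes the NF-κB inhibitor IκBα. Sgk1 correlated with Errfi1 (0.78), Nfkbia (0.77), and Ddit4 (0.72). With the Gapdh ratio held fixed, the r of these 10 pairs fell to between 0.36 for Sult1a1 and Klf9 and 0.74 for Errfi1 and Sgk1. At the other end, Gadd45a, a DNA damage response gene, had r = −0.90 with Klf9 and −0.75 with Tsc22d3. For Cebpd the relations that passed were Per1 (0.70) and Pck1 (−0.57), a gene of glucose synthesis, and for Fkbp5 the one that passed was Klf15 (0.55), a transcription factor gene of cardiac metabolism.

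Few of the 36 genes differed between groups. With MSH and with PM-HD, 0 passed, where 2.99% and 3.32% of all genes did. The limma p without adjustment was under 0.05 for 1 gene with MSH and 0 with PM-HD. With zinc sulfate, 1 rose and 2 fell, where 2.08% and 1.94% of all genes did. They were Mt1 (0.96 on the log2 scale, at a dim mean signal of 37.9), a metallothionein gene that zinc also induces, Irs2 (−1.10), an insulin signaling gene, and Cdkn1a (−0.66), the gene of the cell cycle inhibitor p21. The median log2 fold change of the list was −0.06, against −0.01 over all genes. With PM-LD, Glul (0.52), the glutamine synthetase gene, rose, and Tle3 (−0.60), a corepressor gene, and Cdkn1a (−0.60) fell. With PM-L, Glul (0.40) rose, and Tle3 (−0.47) and Cyp7b1 (fold 0.499, at a mean signal of 36.0) fell. In both, 3 of 36 passed (8.33%), where 3.54% and 3.85% of all genes did. Zinc sulfate against MSH called 1, Sesn1 (1.00), a stress-induced gene, where 6.09% of genes passed, and the 4 groups with soluble zinc against saline and MSH called 3, all higher, where 2.91% did: Gadd45b (0.71), Sesn1 (0.58), and the metallothionein gene Mt2A (0.58).

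The receptors and the supply of hormone did not differ past the thresholds. Of 7 measured genes of a list of 9, 0 passed in any of the 7 comparisons, also by the unadjusted limma p alone. Nr3c1 had log2 fold changes of 0.03 to 0.12, Nr3c2, the mineralocorticoid receptor gene, of −0.23 to 0.08, and Hsd11b1, whose enzyme regenerates active glucocorticoid in the cell, of −0.03 to 0.19. Of 10 measured chaperones of the receptor, Stub1, a ubiquitin ligase gene, rose with zinc sulfate against saline (0.45), and Ppp5c, a phosphatase of the HSP90 complex, rose against MSH (0.54), 1 of 10 in each, where 4.02% and 6.09% of all genes passed. Fkbp4, the cochaperone that promotes what Fkbp5 inhibits, had −0.18 to 0.17. None of the 10 passed in the other 5 comparisons.

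Inflammatory genes that glucocorticoids repress were also followed, 17 measured of 18. With MSH, Ccl2 (1.16) and Ptgs2 (0.92) rose, and Cxcl2 (−0.88) and Icam1 (−1.02) fell, 4 of 17 where 2.99% of genes passed. With PM-HD 0 passed, also by the unadjusted limma p alone, and with zinc sulfate Cxcl2 (fold 0.4999) fell, 1 of 17 where 4.02% did. With PM-LD, Ccl5 (0.68) rose, and Cxcl2 (−0.95) and Csf2 (−0.89) fell, 3 of 17 where 3.54% did, and with PM-L, Ccl5 (0.76) rose and Nos2 (−1.23) fell, 2 of 17 where 3.85% did. The median of the list was 0.07 with MSH, 0.19 with PM-HD, and −0.18 with zinc sulfate. Most of these genes were dim, with Ptgs2 at a mean signal of 23.2, Cxcl2 at 62.9, and Ccl2 at 90.9, the range in which differences are least certain. Zinc sulfate against MSH had Ccl2 lower (−1.19), and the groups with soluble zinc had Ccl5 higher (0.38), 1 of 17 in each where 6.09% and 2.91% of genes passed.

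Downstream of Sgk1, 14 of 18 listed genes of ion transport and SGK1 substrates were measured. With zinc sulfate, Ndrg1 (−0.47), which encodes a substrate that SGK1 phosphorylates, was lower, 1 of 14 (7.14%) where 4.02% of all genes passed. A link of Ndrg1 RNA to that of Sgk1 was not tested, and the arrays do not measure phosphorylation. The other 4 comparisons with saline called 0, also by the unadjusted limma p alone. Against MSH, zinc sulfate had Ndrg1 lower (−0.59) and Kcnh2 (0.59), a potassium channel gene, and Orai1 (0.34), a calcium channel gene, higher, 3 of 14 where 6.09% of genes passed. The groups with soluble zinc called 0 of 14, with 1 at unadjusted p under 0.05.

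Close relatives of the members, 30 measured of 32, were called 1 to 3 times per comparison. These were 3.33% to 10% of the 30, where 2.91% to 6.09% of all genes were called. Klf4 fell with zinc sulfate (−0.92) and Cebpe rose (0.73, at a mean signal of 65.0), and Klf10 rose with MSH (0.99), PM-HD (0.95), PM-LD (0.87), and PM-L (0.73), which share their saline rats. With PM-LD, Sgk2 (−1.13) and Klf16 (−0.56) fell. Klf4 and Cebpe were also called in zinc sulfate against MSH (−0.91 and 1.18), and Klf4 in the comparison of the groups with soluble zinc (−0.51).

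Clock genes, which share Per1 with the list of induced genes, did differ: of 14 measured of 18, 2 were called with MSH, 5 with PM-HD, 6 with zinc sulfate, 8 with PM-LD, 8 with PM-L, and 5 with zinc sulfate against MSH, where 2.99%, 3.32%, 4.02%, 3.54%, 3.85%, and 6.09% of all genes were. The comparison of the groups with soluble zinc called 8 higher and 2 lower, where 1.83% and 1.08% of all genes were. These were led by Dbp (1.86), Nr1d1 (1.24), and Nr1d2 (1.04). The comparisons with saline share their saline rats, so their counts are not separate observations. Per1 itself was called in none of the 7 comparisons. The sources used here do not state the hour of tissue collection, and its part in the level of the 5 members was not tested.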

How the data were processed

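The hearts of 24 male WKY rats were measured on 1 Affymetrix rat expression array each. The deposited values are MAS5 signal intensity values on a linear scale, which the authors made with MAS5 per the labels, and they range from 0.1 to 61915. The study's methods describe another summary of the scans (RMA), which was not part of the files used here. The fit had been planned for log2 values, so the signals were first changed as log2(signal + 16), and per array 4.70% to 10.6% of signals were below 16. The 24 arrays were then quantile normalized. The 57 control probe sets among 15923 were not tested. The platform annotation gave 1 symbol to 12783 probe sets, several to 312, and none to 2771, and 12748 of the first were matched to RefSeq GRCr8, used for names and promoter windows alone. A gene with several probe sets was represented by the brightest.

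Groups were compared with limma 3.58.1 in R 4.3.3, on the 16 arrays of saline, MSH, PM-HD, and zinc sulfate for contrasts among these and on 24 arrays for the others. Following the study's thresholds, a call needed an unadjusted p under 0.05 together with a fold over 1.25 or under 0.75, and Benjamini-Hochberg adjusted p-values were taken over 15866 probe sets. Across the 7 comparisons 0 to 4 probe sets had adjusted p under 0.05. Single genes were also compared by exact permutation of 4 rats against 4. Correlations used normalized log2 values and 100000 permutations (Python 3.11.15, SciPy 1.17.1), within groups on deviations from the group means. Sums of marker genes were instead the log2 of signals summed before normalization. The limma step was tested on simulated data. The members and gene lists were chosen with earlier results of these data known. The genes named are the members, the 5 most alike to each among genes brighter than the median, and the genes of the lists that were called or that the lists are built on. The rats of a group are separate animals, and their number limits the precision. The alternatives tried are another pseudocount, median centring, a filter on dim probe sets, another prior, other sets of arrays, a replicate block, averaging a gene's probe sets, the Gapdh ratio or atrial transcripts as a covariate, other fold limits, and leaving out each array. Correlations within groups with the Gapdh ratio held fixed, those with the actin ratio, both ratios, or the median signal held fixed, and leaving out each array in a correlation or F test, were added after seeing the data.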

Additional observations from a re-analysis of the deposited data

Results flagged for a closer look

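In 5 of the 30 sets of 4 rats (5 genes in 6 groups), 1 rat lay far from the other 3 by Dixon's criterion at the 95% level. For normally distributed values, chance meets it in about 1 in 20 sets. The criterion was applied to signals before normalization, and the sets that meet it differ on the normalized log2 scale. For Sgk1, PM-L replicate 3 had a signal of 1290.6, and the nearest other PM-L rat had 873.1. For Tsc22d3, PM-LD replicate 3 had 2439.5, and the nearest had 1680.4. For Cebpd, zinc sulfate replicate 3 had 530.7, and the nearest had 276.3. For Fkbp5, the same zinc sulfate rat lay on the low side with 264.5, and the nearest had 500.9. For Klf9, saline replicate 1 had 3396.6, and the nearest had 4576.7. The Gapdh ratio of these arrays was 5.62 for PM-L replicate 3, 4.64 for PM-LD replicate 3, 5.57 for zinc sulfate replicate 3, and 1.35 for saline replicate 1. The title of saline replicate 1 differs from the others by an added suffix and a number outside their run, which the labels do not explain. Its mean log2 signal of the 4 atrial genes was 12.44, against 7.84 to 8.82 in the other saline rats. Replicate 2 of PM-LD and of PM-L had 13.12 and 13.19. The part of RNA quality, atrial transcripts, or array handling in these 5 values was not tested.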

How the results depend on the processing

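Each of 57 results (the fold changes, F tests, pairwise correlations, and counts of members called) was recomputed under the alternatives, 1461 values in all. Of 669 values from settings other than leaving out 1 array, 609 kept their direction and their side of the threshold, and of 792 that left out 1 array, 748 did. The log2 fold change of Sgk1 with zinc sulfate against saline passed in every setting but the one without saline replicate 4. With few rats and variable signals, differences smaller than about the reach of a printed interval to either side of its estimate could not be resolved. The cause of the changes below was not tested. The replicate numbers were not taken to pair the rats, since the labels name no shared batch and not every pair deviated together. Over 60 pairs of arrays with the same number in different groups, deviations correlated with r of −0.26 to 0.52 (median 0.056, 22 above 0.1). The median was 0.042 for number 1, 0.19 for number 2 (10 of 15 pairs above 0.1), 0.042 for number 3, and −0.094 for number 4. The numbers follow the running order of the sample titles within each group. Of the 24 arrays, 12 correlated best with their own number. With 4 numbers to choose from, about 1 in 4 arrays would do so by chance, but these matches depend on each other, so no test is given. Among the highest pairs were replicate 3 of PM-LD and zinc sulfate (0.52), with Gapdh ratios of 4.64 and 5.57. Another was replicate 2 of PM-LD and PM-L (0.44), with mean log2 signals of the atrial genes of 13.12 and 13.19. Whether arrays of the same number shared a batch was not tested. With the replicate number as a block, Sgk1 with zinc sulfate had −0.94 and still passed, 1 member was called in that comparison and 0 in the others, and no other call changed.

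With a pseudocount of 64, Cebpd with MSH was 0.0012. Averaging a gene's probe sets, Klf9 was −0.041 with MSH, 0.21 with PM-LD, −0.18 with PM-L, and 0.21 with zinc sulfate against MSH, and Cebpd was 0.18 with MSH. With median centring, Klf9 was 0.20 with zinc sulfate against MSH and 0.028 with PM-LD, and Tsc22d3 was 0.028 in the groups with soluble zinc. With the Gapdh ratio as a covariate, these 3 were 0.084, 0.098, and 0.00503. With the atrial transcripts as a covariate, Klf9 was 0.025 with PM-LD, Tsc22d3 0.0045 with PM-L, and Cebpd −0.045 with PM-L. Without arrays of Gapdh ratio above 3, Fkbp5 was −0.17 with MSH, −0.11 with PM-HD, 0.35 with zinc sulfate, and 0.52 with zinc sulfate against MSH, Klf9 was −0.016 with zinc sulfate, −0.17 with PM-L, and −0.21 in the groups with soluble zinc, Cebpd was 0.22 with PM-HD, Tsc22d3 was −0.56 with zinc sulfate, and 3 members were called with zinc sulfate against saline and 1 against MSH.

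Among the correlations, Sgk1 with Tsc22d3 was 0.40 within groups with the Gapdh ratio held fixed. Sgk1 with Klf9 was 0.51 without arrays of ratio above 3, 0.11 with the ratio held fixed, 0.45 with this within groups, and 0.27 with median centring. In settings added after seeing the data, with the actin ratio held fixed, Sgk1 with Klf9 was 0.17, Sgk1 with Cebpd 0.37, and Klf9 with Fkbp5 0.24, and with this within groups Sgk1 with Tsc22d3 was 0.095, Sgk1 with Klf9 0.20, Tsc22d3 with Cebpd −0.013, Klf9 with Cebpd −0.028, and Klf9 with Fkbp5 0.13. With both ratios held fixed, Sgk1 with Klf9 was −0.029, Tsc22d3 with Klf9 0.30, and Klf9 with Fkbp5 0.27, and with this within groups Sgk1 with Tsc22d3 was 0.048, Sgk1 with Klf9 0.18, Tsc22d3 with Klf9 0.38, and Klf9 with Fkbp5 0.16. With the median signal held fixed, Sgk1 with Klf9 was 0.11 and Klf9 with Fkbp5 0.12, and with this within groups Klf9 with Cebpd was 0.49 and Klf9 with Fkbp5 0.022. Tsc22d3 with Klf9 was 0.43 without arrays of Gapdh ratio above 3 and 0.35 with the Gapdh ratio held fixed. Tsc22d3 with Fkbp5 was −0.056 within groups, −0.21 by rho, −0.0088 without the 2 farthest arrays, and −0.62 without arrays of ratio above 3. Klf9 with Cebpd was 0.43 by rho, Klf9 with Fkbp5 was 0.12 with the ratio held fixed and 0.011 with this within groups, and Cebpd with Fkbp5 was 0.26 without arrays of ratio above 3.

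Leaving out 1 array at a time, with MSH against saline Cebpd ran from −0.15 to 0.28 and Fkbp5 from −0.030 to 0.12. With PM-HD, Cebpd ran from −0.36 to 0.28, Klf9 from 0.24 to 0.69, and Tsc22d3 from −0.0057 to 0.25, with 0 to 1 member called. With PM-L, Cebpd ran from −0.047 to 0.14, Klf9 from −0.043 to 0.40, and Tsc22d3 from −0.32 to 0.089, and with PM-LD Klf9 from −0.31 to 0.19. With zinc sulfate against saline, Sgk1 ran from −1.18 to −0.75, Tsc22d3 from −0.60 to −0.24, and Klf9 from −0.10 to 0.38, with 0 to 2 members called. Against MSH, Sgk1 ran from −0.84 to −0.35, Tsc22d3 from −0.43 to −0.075, Klf9 from −0.37 to 0.10, and Cebpd from −0.060 to 0.37, with 0 to 2 members called. In the groups with soluble zinc, Cebpd ran from −0.071 to 0.18, Klf9 from −0.0025 to 0.12, and Tsc22d3 from −0.093 to 0.017. The correlation of Sgk1 with Klf9 ran from 0.40 (without PM-LD replicate 4, where it did not pass) to 0.55, Klf9 with Cebpd from 0.18 to 0.47 (without PM-HD replicate 3), Cebpd with Fkbp5 from −0.43 (without PM-HD replicate 4) to −0.091, Klf9 with Fkbp5 from −0.32 to 0.17, and Tsc22d3 with Fkbp5 from −0.22 to 0.12.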
